A study of Mus musculus with 12 samples.

Results

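The mitochondrial genome transcripts are the rows of the count tables that carry the symbols of the 13 protein-coding genes of mouse mitochondrial DNA (ND1 to ND6 with ND4L, CYTB, COX1 to COX3, ATP6 and ATP8) and of its tRNA genes (Trn followed by an amino acid letter). The rule found 35 genes, 13 mRNAs and 22 tRNAs, among 44760 genes present in both tables, and all 35 matched a mitochondrial gene of GRCm38 by symbol. The deposited tables class the mRNA rows as "ncRNA", but their symbols and gene identifiers are those of the coding genes.

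Hippocampal RNA came from male APP/PS1 mice (APPswe/PS1dE9) on a C57BL/6 background (N9B6), which carry the Swedish mutant of the amyloid precursor protein and a presenilin 1 that lacks exon 9, and which develop plaques. Every mouse in every group carried these transgenes, and no mice without them were analysed here. A subcutaneous osmotic mini pump gave nicotine hydrogen tartrate, labelled 48 mg/kg/h, or saline for 14 days, in mice of 7 or 18 months. Each of the 4 groups (saline or nicotine, at each age) has 3 libraries, and the labels do not say that these were separate animals, so p-values measure the spread between libraries, which may be technical. The series title names changes with age and with nicotine as its questions.

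Mitochondrial DNA is a small circle read from both strands as long precursors, from which the tRNAs are cut out and the mRNAs and rRNAs released between them. Its proteins are core subunits of respiratory complexes I, III and IV and of the ATP synthase, complex V, and all other subunits of these machines come from nuclear genes. Neurons depend on this machinery for ATP, and hippocampal synapses are rich in mitochondria. Most genes are transcribed from the heavy strand, while ND6 and 8 of the 22 tRNAs come from the light strand.

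Total counts were 25071195 to 29245972 per library at 7 months and 21260068 to 23715015 at 18 months. All 8 markers of hippocampal neurons were detected, with summed levels of 671 to 840 CPM (counts per 1000000 gene counts of the library) at 7 months and 705 to 970 CPM at 18 months. The first 7-month libraries of both infusions have descriptions with another prefix than the other 7-month libraries, and the first nicotine library also held 6107 CPM of choroid plexus markers, the highest sum of the 12 libraries. A list of structural and nuclear RNAs summed to 4108 to 20793 CPM at 7 months, highest in the third libraries of both infusions, and to 32641 to 39790 CPM at 18 months. One 7-month saline library, the second, stood apart within the mitochondrial mRNAs: its make-up lay outside the range of the other 5 libraries of that age for 12 of the 13 mRNAs. Main results that changed without 1 of these libraries are also given without it.

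TrnS1, TrnC, TrnI and TrnL2, which fell or rose with age in both infusions, and the abundant TrnP row that did not pass the test, are shown with the anticodon of each in capitals, as DNA letters of the RNA strand, 5′ to 3′. They were read from the GRCm38 mitochondrial genome at the annotated gene.
TrnS1: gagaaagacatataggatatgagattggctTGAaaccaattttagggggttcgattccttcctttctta
TrnC: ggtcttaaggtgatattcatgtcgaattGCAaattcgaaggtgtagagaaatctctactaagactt
TrnI: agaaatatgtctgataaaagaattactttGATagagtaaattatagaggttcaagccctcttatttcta
TrnL2: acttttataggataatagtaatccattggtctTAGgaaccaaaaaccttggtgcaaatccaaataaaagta
TrnP: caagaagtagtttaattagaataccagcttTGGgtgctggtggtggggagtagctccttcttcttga
TrnS1 (positions 6870 to 6938, light strand) decodes serine, TrnC (5192 to 5257, light strand) cysteine, TrnI (3706 to 3774, heavy strand) isoleucine, TrnL2 (11671 to 11741, heavy strand) leucine and TrnP (15356 to 15422, light strand) proline. TrnS1 is 69 nt long, and 3 of its bases overlap the end of COX1 on the opposite strand.

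Some neighbouring mRNAs share sequence, which bears on how reads are assigned to genes, and the longer overlaps are shown. In the first stretch below, the capitals mark the start codon of ATP6 and, at its end, the stop codon of ATP8. In the next, they mark the 7 nt that belong to both ND4L and ND4. The last is wholly shared by ND5 and by ND6, which is read from the opposite strand.
ATP8-ATP6 overlap: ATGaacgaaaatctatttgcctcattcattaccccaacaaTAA
ND4L-ND4 junction: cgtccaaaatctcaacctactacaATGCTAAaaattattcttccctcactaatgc
ND5-ND6 overlap: TTAATCTCGAGTAA
The strand setting of the counting is not given in the sources used here, so sense and antisense reads of ND5 and ND6, or of COX1 and TrnS1, cannot be told apart. Nuclear genes that copy mitochondrial sequence are a further limit. A stretch of at least 100 nt at 95% identity or more was found in an annotated nuclear transcript for 9 of the 35 genes, and at 100% for 5 of them (ATP6, COX2, COX3, ND4 and ND4L). The tRNAs are 59 to 75 nt long, so none of them could meet this rule, and all 9 genes are mRNAs. Any matches on a further chromosome were left out of these counts, so the counts are minimum values. Those 5 copies lie on chromosome 1, and the ND4L copy, Gm10222 (24612407 to 24612700, minus strand), covers 294 of the 297 nt of ND4L. Among the copies counted, Gm10222 is the 1 with a row of its own in the tables, with 3 to 25 counts per library. How reads were split between copies is not given in the sources used here, so the values of these 9 genes, and of ND4L above all, are uncertain. The search covered annotated transcripts only, so it does not show that the tRNAs and the other mRNAs have no nuclear copies.

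The 35 genes took 4.66%, 5.10% and 4.30% of all counts in the 3 saline libraries at 7 months and 4.80%, 5.01% and 4.84% in the 3 nicotine libraries. At 18 months they took 3.41%, 3.54% and 3.71% in saline and 3.58%, 4.14% and 3.59% in nicotine. The group means were 4.69% ± 0.403, 4.89% ± 0.111, 3.55% ± 0.152 and 3.77% ± 0.324 (SD, n = 3), in that order. Exact 95% binomial intervals were at most 0.0172 percentage points wide, and cover counting error only. All 6 libraries at 7 months lay above all 6 at 18 months, while saline and nicotine overlapped at 7 months and also at 18 months. The shares were also taken without 4 rows in the total: structural or nuclear RNAs such as Rn18s-rs5 and Malat1, and the protein-coding gene Lars2. They were then 4.4% to 5.11% at 7 months and 3.53% to 4.31% at 18 months, so the ages still did not overlap. The mRNAs made up nearly all of this, and the tRNA rows together took 0.0331% to 0.0506% of counts at 7 months and 0.0213% to 0.0315% at 18 months. In bulk tissue, fewer cells of a type and less RNA per cell cannot be told apart.

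**Figure D1:**
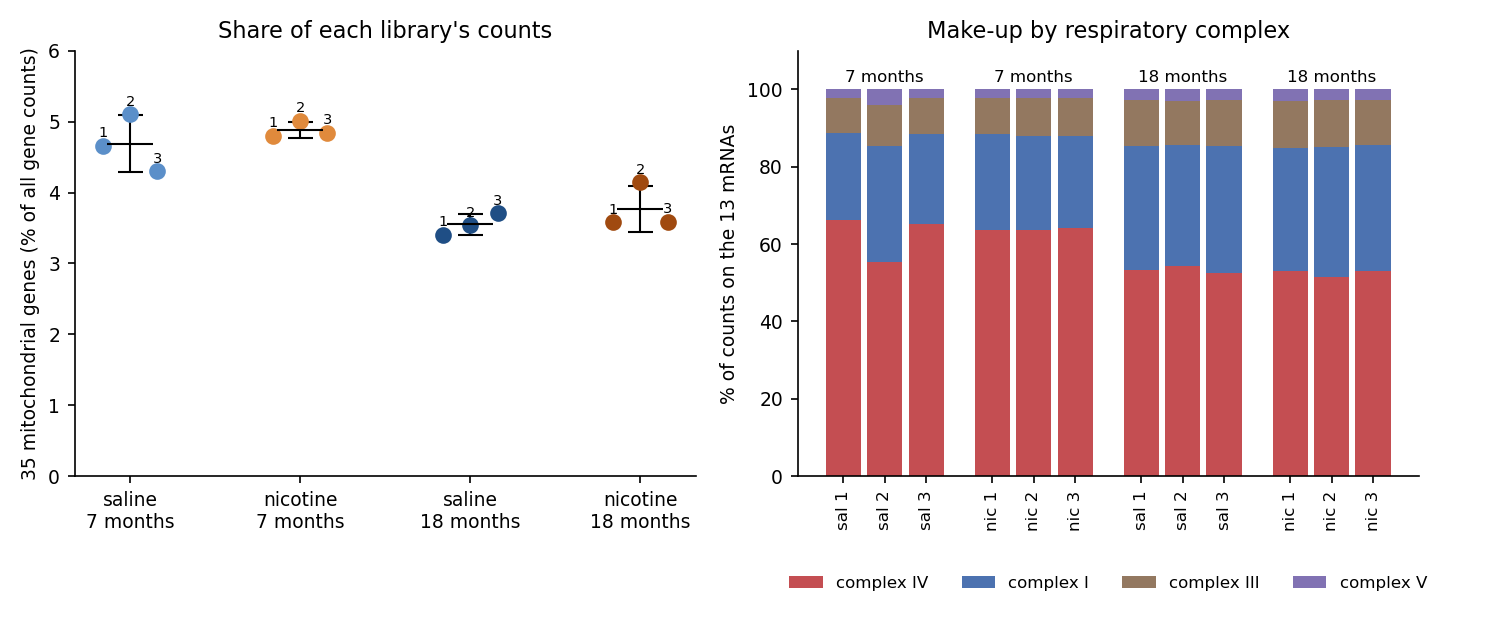
Left, the percentage of each library's gene counts on the 35 mitochondrial genes (y axis) by group (x axis), with a point per library labelled by its number and a bar at the mean with SD over 3 libraries. Right, the counts on the 13 mRNAs in each library divided by respiratory complex (percent, stacked bars): complex IV takes 63.6% to 66.3% in 5 of the 6 libraries at 7 months, 55.4% in the second saline library, and 51.5% to 54.4% at 18 months.

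Per length of annotated gene (RPKM, CPM per kilobase), the upper ranks of the mRNAs were the same in most libraries. The cytochrome c oxidase core subunits COX1, COX2 and COX3 held ranks 1 to 3 in all 12 libraries, with COX3 always at rank 3. CYTB, the cytochrome b of complex III, held rank 4 in all 12. COX1 and COX2 changed places: in saline at 7 months COX1 had 9992 and COX2 9643 RPKM on average, and in nicotine at 7 months COX2 was the higher in 3 of 3 libraries. ND4L, a small membrane subunit of complex I, was last in all 12 libraries at 2.08 to 5.64 RPKM at 7 months and 7.43 to 12.8 RPKM at 18 months, on 17 to 82 counts. ND4, which shares a transcript with ND4L, had 605 to 1085 times more counts per length than ND4L at 7 months and 218 to 304 times more at 18 months. How reads were split between ND4L and its identical nuclear copy Gm10222 is not given. The rank of ND4L and this ratio are thus not read as RNA levels. The other pair that shares a transcript also differed: ATP6 had 0.446 to 0.760 of the level of ATP8 per length at 7 months and 0.357 to 0.424 at 18 months. ND3 ranked 7 in 5 of the libraries at 7 months and 9 in the second saline library, and 11 or 12 at 18 months. ND5, a large proton-pumping subunit of complex I, moved the other way, from rank 12 at 7 months to rank 8 or 9 at 18 months.

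No mitochondrial gene passed the test of nicotine against saline at either age (edgeR quasi-likelihood F-test, Benjamini-Hochberg adjusted p under 0.05 over all genes tested). At 7 months 33 of the 35 genes had enough counts to be tested and 0 were called, where 0.0114% of all genes were called (2 of 17596). At 18 months 32 were tested and 0 were called, where 0.044% of all genes were called (8 of 18196). At an unadjusted p under 0.05 there were 4 members at 7 months (6.5% of all genes) and 8 at 18 months (6.73% of all genes), and DESeq2 also called 0 members at either age. The median log2 fold change of the 13 mRNAs was 0.06 at 7 months, beside -0.01 for all genes tested, and 0.11 at 18 months, beside 0.00 (-0.0047) for all genes. TrnD (0 to 2 counts in a library) and TrnF (0 to 5 counts) were too low to test, and TrnV (5 to 13 counts) was tested at 7 months but not at 18.

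ND3, a membrane subunit of complex I, had the smallest p among the mRNAs at both ages. At 7 months it stood at 692, 663 and 671 CPM (scaled by TMM factors, as are the CPM of all tests that follow) in saline and at 860, 854 and 780 CPM in nicotine. All 3 nicotine libraries were above all 3 saline libraries. The log2 fold change was 0.30 (SE 0.10, adjusted p = 0.656 by edgeR), and 0.30 without the first library of each infusion (adjusted p = 0.693). At 18 months ND3 stood at 266, 255 and 283 CPM in saline and at 311, 343 and 292 CPM in nicotine. The groups again did not overlap, by a narrow margin, and the log2 fold change was 0.23 (SE 0.07, adjusted p = 0.603 by edgeR). Averaged over both ages in 1 fit of all 12 libraries, ND3 had a log2 fold change of 0.28 (SE 0.06, adjusted p = 0.218 by edgeR), in a comparison where 0 of 33 members and 0.0365% of all genes were called. At an unadjusted p under 0.05 there were 7 members (6.86% of all genes), and 26 of 33 log2 fold changes were above 0 (49.4% of all genes). DESeq2 called ND3 in that averaged comparison (log2 fold change 0.28, adjusted p = 0.0009), the 1 member it called.

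The groups did not overlap for 5 members at 7 months, all higher in nicotine, where 17.4% of all genes did not overlap in either direction and 8.77% were higher. Besides ND3 these were COX2, COX3, TrnG and TrnL2. COX2, which carries the copper site that receives electrons from cytochrome c, stood at 6771, 6321 and 6569 CPM in saline and at 7621, 7555 and 7619 CPM in nicotine. COX3 stood at 7052, 6349 and 6813 CPM in saline and at 7457, 7717 and 7379 CPM in nicotine. Both rows were higher in 3 of 3 nicotine libraries, with log2 fold changes of 0.21 (SE 0.09) and 0.16 (SE 0.10), and neither passed (adjusted p = 0.656 for both, edgeR). For TrnL2 the difference lay in 1 library: the third nicotine library had 126 counts and the other 7-month libraries 23 to 39. Its log2 fold change of 1.34 (SE 0.53) was 0.48 without that library (adjusted p = 0.852, edgeR).

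At 18 months the groups did not overlap for 8 members, again all higher in nicotine, where 11.7% of all genes did not overlap and 5.6% were higher. ND3 was the mRNA among them, and the others were TrnI, TrnL1, TrnM, TrnQ, TrnS1, TrnT and TrnW. TrnI stood at 3.34, 3.63 and 3.5 CPM in saline and at 5.56, 4.95 and 4.80 CPM in nicotine. TrnT, the threonine tRNA, stood at 2.40, 2.85 and 3.68 CPM in saline and at 4.13, 5.32 and 4.80 CPM in nicotine. Both sets of libraries were separate, with log2 fold changes of 0.55 (SE 0.13, adjusted p = 0.44) for TrnI and 0.67 (SE 0.19, adjusted p = 0.552) for TrnT by edgeR. Log2 fold changes were above 0 for 30 of the 32 members tested, beside 48.1% of all genes, and for 22 of 33 at 7 months, beside 48.7% of all genes. Members share precursor transcripts and libraries, so these counts are not independent. Without the second nicotine library at 18 months, which had the highest share of mitochondrial counts, 24 of the 32 were above 0 and the median over the members moved from 0.16 to 0.06.

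**Figure D2:**
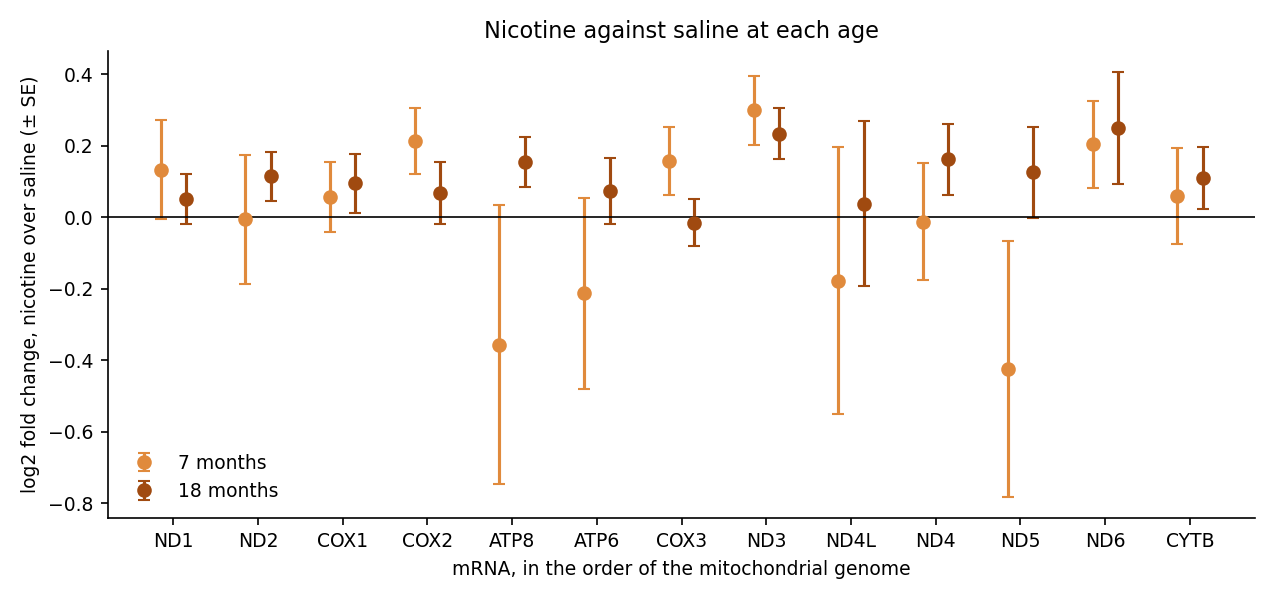
Log2 fold change of nicotine over saline (y axis, points, with bars of 1 SE) for the 13 mRNAs in genome order (x axis) at 7 months (light orange) and 18 months (brown). None passed the test; the estimates lie between -0.42 and 0.30 at 7 months and between -0.02 and 0.25 at 18 months, and the bars are wider at 7 months for all but ND6.

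The direction of several 7-month estimates rested on the second saline library. ND5 stood at 1011, 2501 and 946 CPM in saline and at 1001, 1211 and 1110 CPM in nicotine. Its log2 fold change was -0.42 (SE 0.36, adjusted p = 0.67, edgeR) with that library and 0.18 without it (adjusted p = 0.682). ATP8, a small membrane subunit of the ATP synthase, stood at 274, 836 and 320 CPM in saline and at 360, 361 and 396 CPM in nicotine, with log2 fold changes of -0.36 with the library and 0.33 without it. ND2, ND4, ND4L and ATP6 turned from below to above 0 in the same way, so that 13 of the 13 mRNAs were above 0 without that library and 7 with it. None was called in either case. ND6, the 1 mRNA of the light strand, stood at 711, 742 and 695 CPM in saline and at 730, 949 and 795 CPM in nicotine, and was not called (log2 fold change 0.20, SE 0.12, adjusted p = 0.656, edgeR).

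The nicotine effect was also compared between ages by an interaction term in the fit of all 12 libraries. Of 33 members 0 were called, where 0.00522% of all genes were called (1 of 19171), and 2 had an unadjusted p under 0.05 (7.85% of all genes). Differences of the log2 fold changes, 18 minus 7 months, ran from -1.34 (SE 0.55, TrnL2) to 0.81 (SE 0.46, TrnM), with an adjusted p of 0.623 for both (edgeR). For TrnL2 the difference was -0.48 without the third 7-month nicotine library, which held the 126 counts (adjusted p = 0.764, edgeR). For ND3 the difference was -0.07 (SE 0.12) and for COX1 0.04 (SE 0.13).

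With age, mitochondrial genes moved in both directions. In saline, 17 of the 33 members tested were called between 18 and 7 months, 8 higher and 9 lower, where 46.1% of all genes were called (21.5% higher and 24.6% lower). In nicotine, 18 of 33 were called, 10 higher and 8 lower, where 59.3% of all genes were called (29.5% higher and 29.8% lower). These shares, 51.5% and 54.5% of the members, are near those of all genes. Of the members called, 16 were called in the same direction in both infusions, which use separate libraries but 1 common estimate of spread. The share of all genes called in both was not counted, so the 16 are not read as particular to these members. Higher at 18 months in both were ND4L, ND5, TrnA, TrnG, TrnH, TrnL2, TrnR and TrnS2, and lower in both were ND1, ND3, COX1, COX2, COX3, TrnC, TrnI and TrnS1. Each age is a table of its own, so age and any difference between the tables in library making or sequencing cannot be told apart. The structural and nuclear RNA list named above also differed between the ages, and its part in these results was not tested.

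**Figure D3:**
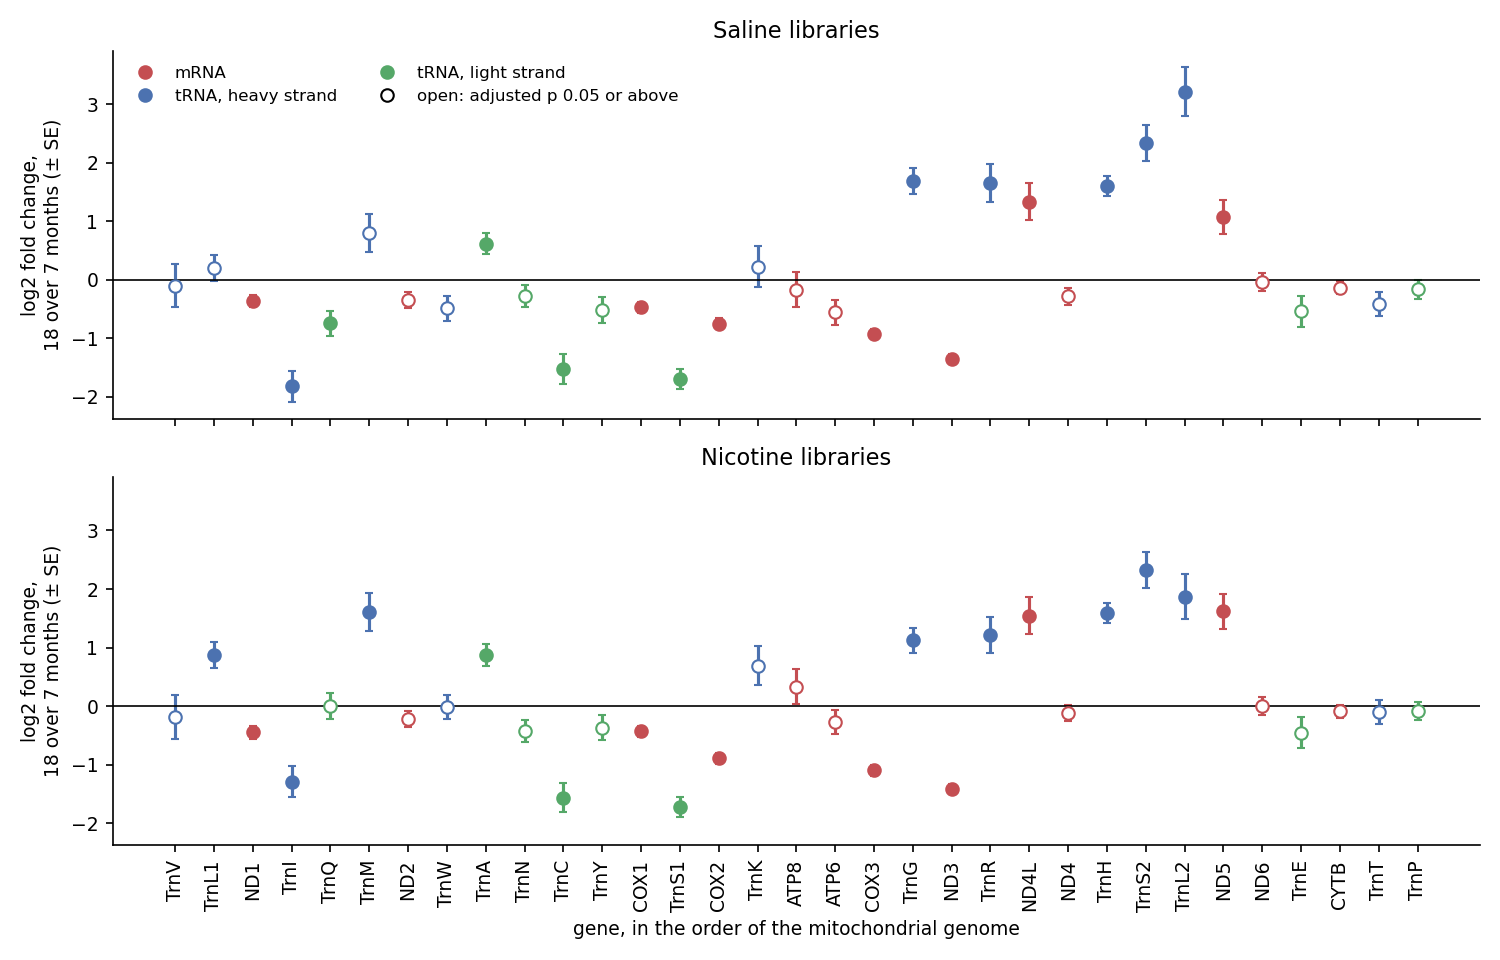
Log2 fold change of 18 over 7 months (y axis, bars of 1 SE) for the 33 members tested in the order of the mitochondrial genome (x axis), in saline (top) and nicotine (bottom). Filled points passed the test and colours separate mRNAs and the tRNAs of each strand. The 8 genes called lower in both infusions lie from ND1 to ND3, and those called higher, other than TrnA, lie from TrnG to ND5.

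Among the subunits of complex IV, the terminal oxidase, all 3 mitochondrial members fell with age in both infusions. COX1, the catalytic heme subunit and the member with the most counts, had 16263, 14877 and 15040 CPM in saline at 7 months and 10969, 10982 and 11491 CPM at 18 months. In nicotine it had 15039, 17073 and 16372 CPM at 7 months and 11258, 12978 and 11827 CPM at 18 months. The ages did not overlap in either infusion, with log2 fold changes of -0.47 (SE 0.09, adjusted p = 0.00247) and -0.43 (SE 0.09, adjusted p = 0.0022) by edgeR. COX2 had 6879, 6215 and 6646 CPM in saline at 7 months and 3840, 3816 and 4100 CPM at 18 months, a log2 fold change of -0.75 (SE 0.09, adjusted p = 0.000216, edgeR), and in nicotine the log2 fold change was -0.89 (SE 0.09, adjusted p = 4.41e-05). COX3 had 7165, 6242 and 6892 CPM in saline at 7 months and 3527, 3473 and 3685 CPM at 18 months. In nicotine COX3 had 7574, 7822 and 7458 CPM at 7 months and 3551, 3714 and 3410 CPM at 18 months. All libraries at 18 months were thus far below all libraries at 7 months, with log2 fold changes of -0.93 (SE 0.09, adjusted p = 4.86e-05) and -1.10 (SE 0.09, adjusted p = 1.08e-05) by edgeR.

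The 7 mitochondrial subunits of complex I, the NADH dehydrogenase, did not move together. ND3 fell, from 703, 652 and 679 CPM to 267, 250 and 282 CPM in saline and from 873, 866 and 788 CPM to 312, 343 and 293 CPM in nicotine. Its log2 fold changes were -1.35 (SE 0.09, adjusted p = 3.37e-06) and -1.41 (SE 0.09, adjusted p = 2.36e-06) by edgeR, lower than those of the other 12 mRNAs in both infusions. ND1 fell less, by 0.36 on the log2 scale in saline (SE 0.11, adjusted p = 0.0179, edgeR; log2 fold change -0.20 without the second 7-month saline library, adjusted p = 0.038; -0.33 without the second 18-month saline library, adjusted p = 0.0605) and by 0.45 in nicotine (SE 0.11, adjusted p = 0.00384). ND5 rose in both infusions, in saline from 1027, 2459 and 957 CPM to 3028, 2891 and 3455 CPM and in nicotine from 1017, 1227 and 1122 CPM to 2868, 4104 and 3351 CPM. The second 7-month saline library lay between the ages. The log2 fold change of ND5 in saline was 1.08 (SE 0.29, adjusted p = 0.011, edgeR) with that library and 1.68 without it (adjusted p = 1.65e-06). The ND5 call in saline was lost without the first saline library at 7 months (log2 fold change 0.86, adjusted p = 0.0511), without both first 7-month libraries (0.90, adjusted p = 0.0535) and without the third library of each infusion (0.85, adjusted p = 0.0534). In nicotine ND5 rose by 1.62 on the log2 scale (SE 0.30, adjusted p = 0.000676, edgeR).

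ND4L rose from 1.02, 1.63 and 0.635 CPM to 2.50, 2.52 and 3.26 CPM in saline, a log2 fold change of 1.34 (SE 0.31, adjusted p = 0.00526, edgeR), and by 1.54 in nicotine (SE 0.32, adjusted p = 0.00138). These are low values, and the identical nuclear copy Gm10222 also had more counts at 18 months, 15 to 25 a library, than at 7 months, 3 to 8 a library. ND2, ND4 and ND6 did not pass in either infusion, with log2 fold changes of -0.34, -0.28 and -0.04 in saline and -0.23, -0.11 and 0.00 (0.0012) in nicotine. Without the second 7-month saline library, ND2 was at -0.10 and ND4 at -0.07 in saline. ND2 was called in saline without the first (-0.47, adjusted p = 0.0256) or the third (-0.41, adjusted p = 0.0485) 7-month saline library, and in nicotine without the second saline one (-0.22, adjusted p = 0.0125), which enters there through the common spread. CYTB also did not pass (-0.14 in saline and -0.09 in nicotine). The ATP synthase mRNAs ATP6, part of the proton channel, and ATP8 did not pass by edgeR, at -0.55 and -0.17 in saline and -0.27 and 0.33 in nicotine. For ATP6 in saline the adjusted p was 0.0508, and DESeq2 called it (adjusted p = 0.0429). ATP6 in saline was at -0.15 without the second 7-month saline library (adjusted p = 0.297), and was called without the first (-0.67, adjusted p = 0.046) or the third (-0.74, adjusted p = 0.0138). ATP8 turned to 0.52 in saline without that second library and was then called higher (adjusted p = 0.00034). In nicotine, leaving out the same saline library also brought calls for ATP8 (0.34, adjusted p = 0.00214) and ATP6 (-0.26, adjusted p = 0.0477), by edgeR.

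The difference between ages was also visible within each library, as the make-up of the mRNA counts, which does not depend on scaling between libraries. ND5 made up 2.25% of the 13 mRNAs in the first saline library at 7 months, 4.98% in the second and 2.18% in the third, and 2.13% to 2.40% in the nicotine libraries. At 18 months it made up 8.04% to 9.92% in all 6 libraries. The ratio of the group means, 18 over 7 months, was 2.85 ± 1.46 in saline (4.04 without the second library) and 4.01 ± 0.488 in nicotine. Here ± is a spread derived from the relative SDs of both groups. ND3 made up 1.32% in that second library, 1.54% to 1.83% in the other libraries at 7 months and 0.743% to 0.875% at 18 months, so its ages did not overlap. COX2 made up 12.6% in the second library, 15% to 16.2% in the others at 7 months and 10.5% to 11.5% at 18 months. For COX3 these values were 12.7%, 15.2% to 15.9% and 8.97% to 10.3%. COX1, between 30.2% and 35.6% in all 12 libraries, overlapped between ages.

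Summed by complex, complex I rows made up 22.6% to 25% of mRNA counts in 5 libraries at 7 months, 29.9% in the second saline library, and 31.1% to 33.7% at 18 months. Among the complex I rows, ND5 went from 2.13% to 2.40% in those 5 libraries to 8.04% to 9.92% at 18 months, while ND3 went down. The sum thus does not stand for all complex I rows. Complex IV rows went the other way, as plotted by complex above. The parts add up to a whole, so a higher share of 1 complex lowers the shares of others. CYTB made up 9.01% to 9.84%, 10.6% in the second saline library, and 11.5% to 11.9% at 18 months. The 2 ATP synthase rows made up 2.09% to 2.32%, 4.15% in that library, and 2.69% to 3.11% at 18 months. The second saline library thus lay between the ages for 6 of the 13 mRNAs (ND3, ND4L, ND5, CYTB, COX2 and COX3), and beyond both ages for others such as ATP8, with 1.67% against at most 1.33% elsewhere. Leaving it out, the 2 ages did not overlap for 9 of the 13 mRNAs. ND5 and ND6 are neighbours on opposite strands, and their counts stood at 1.28 to 1.42 reads of ND5 per read of ND6 in 5 libraries at 7 months, 3.37 in the second saline library and 4.07 to 4.80 at 18 months.

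**Figure D4:**
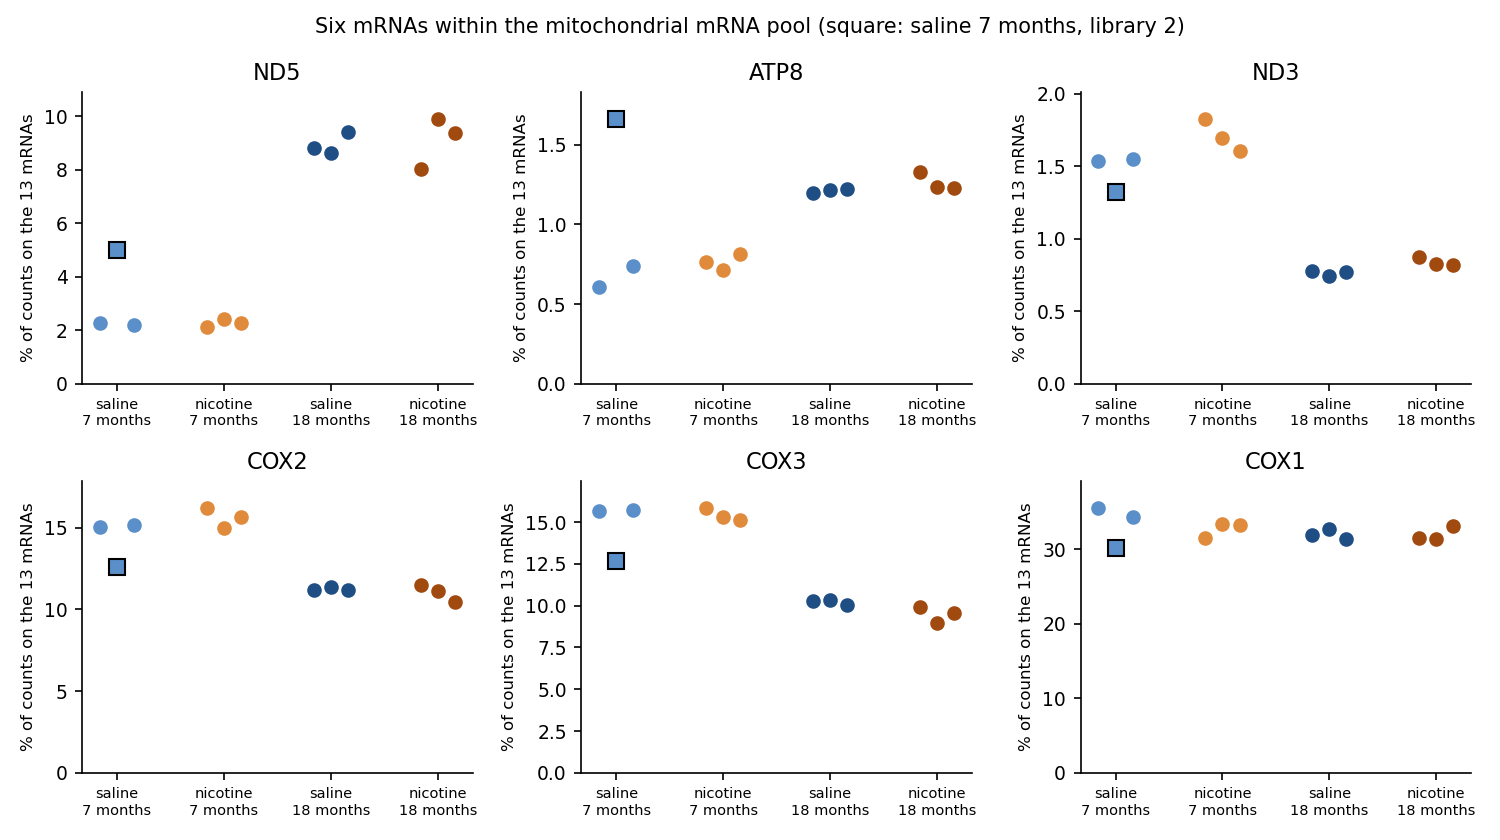
Percent of the counts on the 13 mRNAs (y axis) taken by 6 of them in each library, by group (x axis); points are libraries, and the square is the second saline library at 7 months. ND5 is higher and ND3, COX2 and COX3 are lower in all libraries at 18 months, the square lies between the ages for these 4, and COX1 overlaps between ages.

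The tRNA rows had few counts, 8305 to 13017 per library at 7 months and 4777 to 6796 at 18 months. The rows do not separate mature tRNAs from precursors or fragments, and the labels describe a small RNA kit while the tables also hold mRNAs. The strand setting of the counting is not given in the sources used here. A row may thus hold reads of either strand, and the split by strand that follows is one of annotated genes. The 8 light-strand tRNAs held 89.6% to 91.5% of the tRNA counts at 7 months and 75.4% to 79.2% at 18 months. Their summed raw counts were 7442 to 11907 per library at 7 months and 3625 to 5250 at 18 months, with no overlap. The 14 heavy-strand tRNAs had 863 to 1184 raw counts at 7 months and 1041 to 1546 at 18 months, which overlapped. These sums were not scaled for depth, and total counts were lower in every library at 18 months than at 7 months. The overlap is thus not read as a heavy-strand level alike between the ages.

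TrnS1 had the most counts of the tRNA rows in every library at 7 months. It stood at 198, 111 and 184 CPM in saline and 183, 207 and 181 CPM in nicotine at 7 months, and at 48.9, 51.3 and 52.2 CPM and 52.9, 59.8 and 59.5 CPM at 18 months. Every library at 18 months was below every library at 7 months, with log2 fold changes of -1.69 (SE 0.17, adjusted p = 7.61e-05) in saline and -1.73 (SE 0.17, adjusted p = 3.25e-05) in nicotine by edgeR. It held 34.4% to 45.7% of tRNA counts at 7 months and 18.9% to 23.9% at 18 months. TrnS1 lies behind COX1 on the other strand, and COX1 had 81.7 to 90.7 counts per TrnS1 count in 5 libraries at 7 months, 134 in the second saline library and 199 to 224 at 18 months. TrnC fell by 1.52 on the log2 scale in saline (SE 0.26) and by 1.56 in nicotine (SE 0.26). TrnP and TrnE (glutamate) did not pass, at -0.16 and -0.54 in saline and -0.08 and -0.45 in nicotine. TrnN (asparagine) and TrnY (tyrosine) did not pass either, at -0.28 and -0.52 in saline and -0.43 and -0.37 in nicotine. Each was called in 1 infusion when some single libraries were left out, TrnN in nicotine without the second 18-month nicotine library (-0.61, adjusted p = 0.0216) or the third 7-month one (adjusted p = 0.0484), and TrnY in saline without the third 18-month saline library (-0.73, adjusted p = 0.0291) or the second 7-month nicotine one (adjusted p = 0.0469). TrnA, the alanine tRNA of the same strand, rose by 0.62 (SE 0.19) in saline and by 0.87 (SE 0.19) in nicotine, from a mean of 5.04 ± 0.624 CPM to 7.75 ± 0.717 CPM in saline (SD, n = 3). The TrnA call in saline was lost without the third 7-month saline library (0.58, adjusted p = 0.0598, edgeR) or the third 18-month one (0.55, adjusted p = 0.0674).

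TrnI was the 1 heavy-strand tRNA that fell in both infusions, from 15.2, 6.60 and 14.9 CPM to 3.35, 3.55 and 3.49 CPM in saline and from 14.6, 12.8 and 10.1 CPM to 5.59, 4.94 and 4.82 CPM in nicotine. The ages did not overlap, with log2 fold changes of -1.82 (SE 0.27) and -1.29 (SE 0.26). The 5 tRNA genes between COX3 and ND5, all of the heavy strand, each rose in both infusions, a grouping made after their values were seen. TrnL2 rose most in saline, from 1.22, 0.931 and 0.859 CPM to 8.30, 9.756 and 10.008 CPM, a log2 fold change of 3.21 (SE 0.42, adjusted p = 0.000245, edgeR). In nicotine its log2 fold change was 1.87 (SE 0.38, adjusted p = 0.00129), and 2.72 without the third 7-month nicotine library that held 126 counts. TrnS2, a serine tRNA, rose by 2.33 (SE 0.31) and 2.32 (SE 0.31), and TrnH, the histidine tRNA, by 1.60 (SE 0.18) and 1.59 (SE 0.17), in saline and nicotine. TrnG (glycine) rose by 1.69 and 1.13, and TrnR (arginine) by 1.65 and 1.22. Over all 33 members, the ages did not overlap for 21 in saline, 8 higher and 13 lower, where 49.7% of all genes did not overlap (24% higher and 25.7% lower). In nicotine they did not overlap for 21, 11 higher and 10 lower, where 68.9% of all genes did not (34.4% higher and 34.5% lower).

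TrnL1 and TrnM were called higher in nicotine but not in saline, and TrnQ lower in saline but not in nicotine. The log2 fold changes were 0.21 and 0.87 for TrnL1, 0.80 and 1.61 for TrnM, and -0.74 and 0.00 (0.0016) for TrnQ, in saline and nicotine. The TrnQ call was lost without the first (adjusted p = 0.0584) or the third (adjusted p = 0.0552) 7-month saline library or the second 18-month one (adjusted p = 0.0592). The interaction term did not pass for any of them (adjusted p = 0.623 each, edgeR). TrnM was at 6.21 CPM in the second saline library at 7 months and at 2.13 to 2.97 CPM in the other libraries of that age, and without that library it was called in saline too (log2 fold change 1.5). Rows of the heavy strand that did not pass in either infusion were TrnK, TrnT, TrnV and TrnW.

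**Figure D5:**
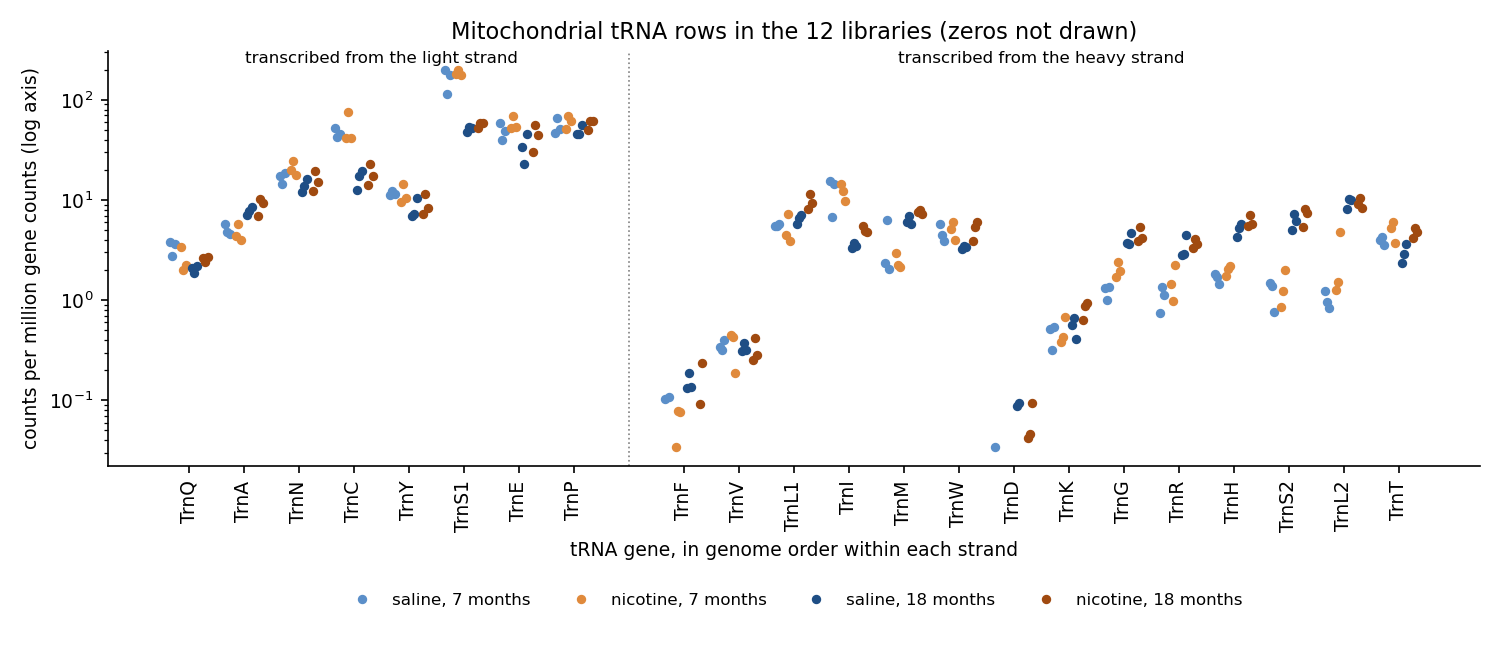
CPM from total counts (log y axis) of each tRNA row (x axis, light-strand rows left of the dotted line), with 1 point per library and a colour per group; libraries with 0 counts are not drawn. TrnS1, TrnC and TrnI are lower, and TrnG, TrnR, TrnH, TrnS2 and TrnL2 higher, at 18 months in both infusions.

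Nuclear genes of the same machinery were counted from lists, to be read against the 46.1% of all genes called in saline and the 59.3% called in nicotine. Of 71 nuclear subunits of complexes I, III, IV and V, 71 were called lower at 18 months in each infusion, with median log2 fold changes of -1.02 in saline and -1.28 in nicotine. The 13 mitochondrial mRNAs had medians of -0.34 and -0.23, and 5 of them were called lower and 2 higher in each. Without the second 7-month saline library the mRNA median in saline was -0.10. Cox7c, a small subunit of complex IV, fell by 1.51 on the log2 scale in saline (SE 0.14, adjusted p = 5.35e-05, edgeR), and Ndufb3 of complex I by 1.27 (SE 0.13, adjusted p = 7.51e-05). With nicotine at 7 months 0 of the 71 were called and 70 were above 0, with a median of 0.24, beside 48.7% of all genes above 0 and a median of -0.01. These genes were measured in the same libraries, so the count above 0 is not one of independent genes. The mitochondrial mRNAs had a median of 0.06, which was 0.20 without the second saline library and -0.01 without the first, so no difference from the nuclear genes is read from it. At 18 months 0 of the 71 nuclear subunits were called and 37 were above 0, beside 48.1% of all genes.

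The list of mitochondrial transcription factors and their regulators had 13 of 16 genes called with age in each infusion, 11 lower and 2 higher in saline and 10 lower and 3 higher in nicotine. Tfam, which packages mitochondrial DNA and starts its transcription, fell by 0.37 on the log2 scale in saline (SE 0.11, adjusted p = 0.0159, edgeR) and by 0.39 in nicotine (SE 0.11, adjusted p = 0.00818). Polrmt, the mitochondrial RNA polymerase, was at -0.07 in saline (adjusted p = 0.643) and fell by 0.30 in nicotine (SE 0.12, adjusted p = 0.0403). Ppargc1a, a coactivator of mitochondrial biogenesis, was at 0.37 in saline (adjusted p = 0.15) and rose by 0.63 in nicotine (SE 0.20, adjusted p = 0.017). Of 20 genes for RNA processing, polyadenylation and turnover, 11 were called in saline and 13 in nicotine, all lower. Slirp, which with Lrpprc keeps mitochondrial mRNAs stable, fell by 1.25 (SE 0.15, adjusted p = 0.000172) and by 1.28 (SE 0.15, adjusted p = 6.69e-05), while Lrpprc itself did not pass, at 0.03 in both.

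Mitochondrial ribosomal proteins were called lower for 76 of 78 genes in saline and 78 of 78 in nicotine, with medians of -0.73 and -0.94. Of 17 tRNA synthetases, which charge these tRNAs, 1 was called higher and 4 lower in saline, 29.4% of the list, and 2 higher and 10 lower in nicotine, 70.6% of the list. Of 17 genes for tRNA maturation and modification, 1 was higher and 9 lower in saline, and 1 higher and 10 lower in nicotine. Of 14 genes for mitochondrial DNA replication and maintenance, 1 was higher and 6 lower in saline, and 2 higher and 8 lower in nicotine. Lars2, the leucine tRNA synthetase, did not pass in either (adjusted p = 0.229 and 0.062, edgeR). By total counts it stood at 3938 and 1684 CPM in the third 7-month libraries of saline and nicotine. The other libraries of that age had 101 to 144 CPM, and those at 18 months 5159 to 6356 CPM. The missing call is thus not read as a level alike between the ages. The ribosomal RNA row Rn18s-rs5 stood at 17602 and 8110 CPM, 455 to 690 CPM and 22224 to 27437 CPM in the same sets of libraries. A link between these 2 rows was not tested. In the comparisons of nicotine with saline, 0 genes of these 6 lists were called at 7 or at 18 months.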

How the data were processed

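The authors deposited raw fragment counts per gene, 1 table for each age, with no normalization. TopHat (no version given) and the GRCm38 build are named, per the submitters' processing notes; the counting tool, annotation and strand setting are not given in the sources used here. Genes present in both tables were joined by symbol. Members and gene lists were chosen with earlier results of these data known.

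edgeR 4.0.16 (R 4.3.3) was fitted to all genes that filterByExpr kept: TMM factors, quasi-likelihood F-test, Benjamini-Hochberg adjustment, threshold 0.05. Nicotine was tested within each age on 6 libraries; the 12 libraries, as 4 group means, gave its average over ages, its interaction with age and the age contrasts. SEs were derived from each log2 fold change and its F statistic, so they restate the test. CPM in tests use TMM factors of the fit named; shares, make-up and RPKM use total counts and annotated lengths and were not tested. The scripts were tested on simulated data.

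The rule for naming took the 13 mRNAs, the tRNAs tested, up to 4 smallest-p genes of each list, and Lars2, Tfam, Polrmt, Lrpprc and Ppargc1a; alternatives were recorded for the mRNAs and for tRNAs with an unadjusted p under 0.05. Alternatives were RLE factors, scaling without the members, no filter, DESeq2 1.42.0, replicate number as a block, each library left out, the first or the third 7-month library of both infusions left out, and all 12 libraries in 1 fit. Scaling by total counts alone was chosen after seeing the data. Replicate numbers were not used to pair libraries in the main fits. Departures from group means of same-number libraries correlated across genes at -0.133 to 0.248 over 12 pairs, some of them across ages. With 3 libraries in a group, this check cannot show that no libraries were paired. Gene positions are GENCODE M21, identical in RefSeq GRCm38.p6; copies were searched with BLAST 2.17.0. Figures were drawn with matplotlib 3.10.9.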

Additional observations from a re-analysis of the deposited data

How the results depend on the processing

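Of the values compared for the named members, 209 of 225 kept direction and side of the threshold for nicotine at 7 months, 253 of 260 at 18 months, 353 of 360 averaged over ages, 282 of 300 for the difference between ages, 489 of 520 for age in saline and 482 of 500 for age in nicotine. With RLE factors, scaling without the members or total counts alone, the median of all genes moved by less than 0.1. The cause of the changes listed here was not tested.

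Without each library in turn, genes called over all genes ranged from 0 to 2 for nicotine at 7 months (2 with all libraries), from 5 to 21 at 18 months (8), from 2 to 21 averaged (7) and from 0 to 3 for the difference (1). Without the low-count filter the counts were 6, 35 and 15 for the first 3 of these. DESeq2 called 81, 57, 80 and 37 genes, and 1 member, ND3, in the average. With the replicate number as a block, 1 gene was called at 7 months and 0 for the difference between ages (1263 at an unadjusted p under 0.05), and 0 members for nicotine; 19 members were called for age in saline and 18 in nicotine. At 7 months, same-number libraries share more than a number in some cases. Those numbered 1 have a description prefix that the others of that age lack. Those numbered 3 have the highest Rn18s-rs5 and Lars2 levels of that age. At 18 months the labels give no link but the number. Without both first 7-month libraries, 0 genes were called for nicotine at 7 months (899 at an unadjusted p under 0.05), 2 for the difference and 5852 for age in saline (8844 with all). Without the third ones these were 5, 3 and 5761. In 1 fit of all 12 libraries, 9 genes were called at 7 months and 0 at 18 months (505 at an unadjusted p under 0.05).

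Log2 fold changes for nicotine at 7 months turned for ND2 (main -0.0061; 0.0044 with no filter, 0.026 with the block, 0.012 with all 12 libraries), ND4 (0.0093 with the block, 0.0049 with all 12) and CYTB (-0.025 without the third libraries). Leaving out 1 library, they ranged from -0.13 to 0.23 for ND2, -0.11 to 0.19 for ND4, -0.45 to 0.24 for ND4L, -0.66 to 0.18 for ND5, -0.0058 to 0.20 for CYTB, -0.42 to 0.18 for ATP6 and -0.63 to 0.33 for ATP8. At 18 months they ranged from -0.22 to 0.19 for ND4L, -0.018 to 0.24 for ND5, -0.010 to 0.14 for COX2 and -0.044 to 0.016 for COX3. Averaged over ages the ranges were -0.18 to 0.15 for ND4L, -0.24 to 0.16 for ND5, -0.15 to 0.14 for ATP6 and -0.22 to 0.25 for ATP8.

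For the difference between ages they were -0.12 to 0.24 for ND2, -0.032 to 0.25 for ND4, -0.20 to 0.45 for ND4L, -0.057 to 0.75 for ND5, -0.11 to 0.18 for ND6, -0.092 to 0.11 for CYTB, -0.019 to 0.086 for COX1, -0.11 to 0.44 for ATP6 and -0.17 to 0.78 for ATP8. Without both first libraries ND6 was at -0.057 and COX1 at -0.069, and without the third ones ND6 was at -0.0022. For age in saline the ranges were -0.20 to 0.039 for ND6, -0.20 to 0.012 for CYTB and -0.45 to 0.52 for ATP8. For age in nicotine ND6 ranged from -0.16 to 0.13, and was at -0.040 with no filter, -0.0045 with the block, -0.074 without both first and -0.050 without the third libraries. Depth limits the tRNA rows and ND4L most, some of which have fewer than 50 counts in a library.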

Other observations

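The mitochondrial rRNA rows Rnr1 and Rnr2 are cut from the same heavy-strand precursor as most of the mRNAs. Together they took 0.567% to 0.764% of counts at 7 months and 0.582% to 0.756% at 18 months, ranges that overlap. The 13 mRNAs had 5.58 to 8.95 counts per rRNA count at 7 months and 5.06 to 5.84 at 18 months. The highest ratio, 8.95, was that of the second saline library at 7 months, and the next highest was 7.49. At 18 months all 6 libraries lay at or below 5.84, and 1 library at 7 months, the third saline library, lay below that value. These ratios were not tested.

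Astrocyte markers summed to 2889 to 4244 CPM at 7 months and 5048 to 5783 CPM at 18 months, and blood markers to 142 to 353 CPM at 7 months and 35.5 to 135 CPM at 18 months, so both separated the ages, in opposite directions. Oligodendrocyte markers overlapped between the ages (3909 to 6463 CPM and 3079 to 5701 CPM). The part of cell makeup in the age differences of the mitochondrial genes was not tested.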
